A study of Mus musculus with 2 samples.

Results

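The genes described here encode ligands and receptors of the platelet-derived growth factor (PDGF) and vascular endothelial growth factor (VEGF) families. They are the PDGF ligand genes Pdgfa, Pdgfb, Pdgfc and Pdgfd, the VEGF ligand genes Vegfb and Vegfc, the PDGF receptor genes Pdgfra and Pdgfrb, and the VEGF receptor genes Flt1 and Kdr. The 10 members were taken by name, as every probe set whose single annotated gene symbol is one of them, out of 18193 genes with a probe set. They have 23 of the 34945 probe sets that list a single gene. A probe set is a group of short oligonucleotides that together report 1 transcript region.

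RNA came from a pair of mouse epithelial cell lines, called Mlesico and Mle29c in the labels, with 1 oligonucleotide array for each line. Both lines were grown in DMEM with serum and no treatment is given. The title of the series concerns miR-29c in pulmonary fibrosis, with epithelial renewal and apoptosis as themes. The labels do not say what was done to make either line, in which direction miR-29c was changed, or how many clones each line holds. Every comparison is therefore between 2 RNA samples, has no spread between replicates and carries no p-value.

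The array carries no probe set named for a miR-29 gene here, so the microRNA after which Mle29c is called has no value. Its sequence is shown because the seed, bases 2 to 8 in capitals, is the part with which a microRNA pairs to its targets. The mature sequences below are from RefSeq (GRCm38.p6) and run 5′ to 3′. miR-29c-3p comes from chromosome 1 (195037600 to 195037621, + strand) and miR-29a-3p from chromosome 6 (31062673 to 31062694, - strand), while miR-29b-3p has 2 gene copies, 1 beside each of the others.
miR-29c-3p: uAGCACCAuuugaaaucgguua
miR-29a-3p: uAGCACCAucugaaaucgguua
miR-29b-3p: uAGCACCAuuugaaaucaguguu
All 3 share the seed AGCACCA. Over their shared length miR-29a-3p differs from miR-29c-3p at 1 base and miR-29b-3p at 3. Target sites in the members' transcripts were not analysed here.

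PDGF and VEGF ligands are related secreted growth factors that act as dimers, each chain folded around a cystine knot. PDGF dimers bind the receptor tyrosine kinases encoded by Pdgfra and Pdgfrb, which are typical of fibroblasts, pericytes and smooth muscle, and epithelial PDGF-A recruits alveolar myofibroblasts in the developing lung. VEGF ligands act on endothelial cells: FLT1 binds VEGF-B and placental growth factor, KDR carries most of the growth signal to blood vessels, and VEGF-C acts mainly on lymphatic vessels through the receptor encoded by Flt4 with neuropilin 2 as coreceptor.

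The clearest difference was in Vegfc, the lymphatic growth factor gene, which was 13.5-fold lower in Mle29c. Its 3 probe sets lay close together. Of the PDGF ligand genes all 4 were within 2-fold as gene values, and so was Vegfb. However, 1 Pdgfb probe set was 2.51-fold higher in Mle29c, and the Pdgfd value came from 1 of 3 probe sets. Pdgfra, Flt1 and Kdr were also within 2-fold as gene values, but single probe sets of Pdgfra and Flt1 were not, and Pdgfrb was too dim in both of its probe sets to be given a gene value. Thus 1 of the 9 measured members was at least 2-fold lower in Mle29c, where 7.18% of all 14831 measured genes were, and none was at least 2-fold higher, where 8.41% of all were. With 9 genes, these shares are not told apart from the background. The median log2 ratio was -0.10 over the 9 measured members and 0.00 over all measured genes.

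The values behind these statements are log2 ratios, Mle29c minus Mlesico, so that 1 is a doubling and -1 a halving in Mle29c. The deposited values of a probe set are centred between both arrays: the Mle29c value is the mirror image of the Mlesico value, and the level itself was removed. Base 2 is inferred from the range of the values and is not stated. An approximate level class was recovered from rounding of the stored numbers, with nominal ranges of the mean log2 signal of 8 or more for high, 4 to 8 for middle and below 4 for low. Where the class rests on the rounding step, only an upper bound on the weaker array is known, and for the high class no bound. The mean may then lie outside the nominal range. A gene counted as measured when it had a high or middle probe set, and its value is the median over those. Of the members' 23 probe sets, 4 were high, 13 middle and 6 low. As a technical spread, the SD between probe sets of 1 gene was 0.62 in log2 ratio, pooled over 6905 measured genes. It holds no difference between cultures.

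**Figure D1:**
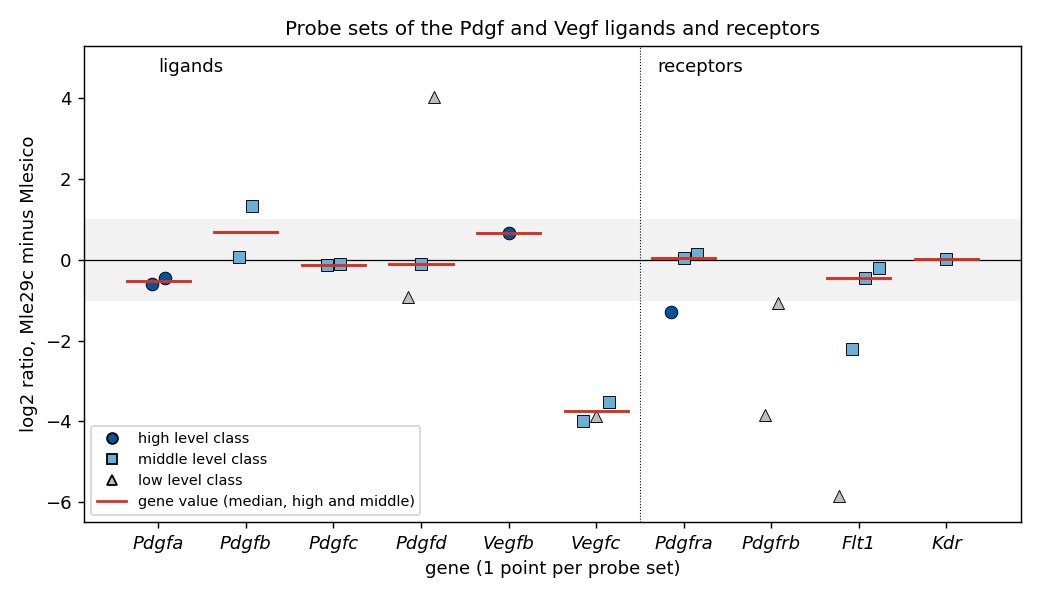
Log2 ratio (Mle29c minus Mlesico) of each of the 23 probe sets of the 10 genes, with point shape and colour giving the level class, a red bar for the gene value and a grey band for differences under 2-fold. The 3 Vegfc points lie together between -3.99 and -3.52, while Pdgfd and Flt1 have 1 low-class probe set each far from the others, at 4.04 and -5.85.

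Among the PDGF ligands, only Pdgfa, which encodes the A chain, had probe sets in the high class, 1418711_at from the rounding step alone. They stood at centred log2 values of 0.30 in Mlesico and -0.30 in Mle29c for 1418711_at, and at 0.23 and -0.23 for 1449187_at. The ratios of -0.61 and -0.46 lie within 0.15 of each other, and the gene value of -0.53 makes Pdgfa 1.44-fold lower in Mle29c. This is under 2-fold and smaller than the pooled SD between probe sets. Of all measured genes, 16.9% had a lower ratio.

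Pdgfb encodes the B chain, best known as the signal from endothelial cells to pericytes. Its 2 probe sets, both in the middle class, did not give the same picture. 1450413_at had a ratio of 0.07 and 1450414_at one of 1.33, a gap of 1.26 that is about as large as the higher ratio itself. The gene value of 0.70 is thus an average of a probe set without a difference and a probe set 2.51-fold higher. Pdgfb lies on chromosome 15, whose 582 measured genes had a median of 0.36, and 0.34 of its ratio was left after that median was taken off.

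Pdgfc encodes a ligand secreted in a latent form that proteases must cut. It differed least between its probe sets, which stood at -0.11 and -0.13, both in the middle class. At 1.09-fold lower in Mle29c, it was nearly level between the lines. Pdgfc has been reported as a miR-29 target in other cells.

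Pdgfd encodes the other protease-activated ligand, and its probe sets were scattered over 4.96 log2 units. The single probe set in the middle class, 1446691_at, was designed on an expressed sequence tag and stood at -0.10. The remaining pair was in the low class, with 1426319_at at -0.93 and 1456532_at at 4.04. For 1426319_at the rounding puts the Mle29c log2 signal below 2 and the Mlesico signal below 2.93, and for 1456532_at it puts Mlesico below 4. Both ratios therefore rest on at least 1 array with a very weak signal, so that no direction can be given for Pdgfd.

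The VEGF ligands Vegfb and Vegfc had ratios of opposite sign, that of Vegfb being small. Vegfb, whose product binds FLT1 and is linked to lipid uptake and vessel survival, had 1 probe set, classed high from the rounding step. Its centred values were -0.34 in Mlesico and 0.34 in Mle29c. It was 1.59-fold higher in Mle29c, under 2-fold, and its ratio of 0.67 is close to the pooled SD of 0.62 between probe sets. Its chromosome, 19, had a median of 0.27, which leaves 0.40.

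Vegfc had centred values of 1.99 in Mlesico and -1.99 in Mle29c for 1440739_at, 1.76 and -1.76 for 1439766_x_at, and 1.93 and -1.93 for 1419417_at. The Mlesico array was the higher in all 3, with ratios of -3.99, -3.52 and -3.87, or 15.9-fold, 11.5-fold and 14.6-fold lower in Mle29c. The SD of the 3 ratios was 0.24, close to the median SD of 0.29 among the 6905 genes behind the pooled value and below the pooled SD of 0.96 over probe sets of every class. The gene value of -3.75, from the 2 probe sets in the middle class, ranked 82nd from the lowest of all 14831 measured genes, with 0.546% below it. The size of the difference is less firm than its direction. Rounding puts the Mle29c signal below 256 in the 2 middle-class probe sets and below 16 in 1419417_at, and the Mlesico signal of 1419417_at below 233. The values used here hold no detection call, so whether Vegfc was above background in Mle29c is not known. No lower bound on the signal in either array could be had for these probe sets. The x in 1439766_x_at marks probes that may also match other transcripts. Without that probe set the gene value is -3.99.

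**Figure D2:**
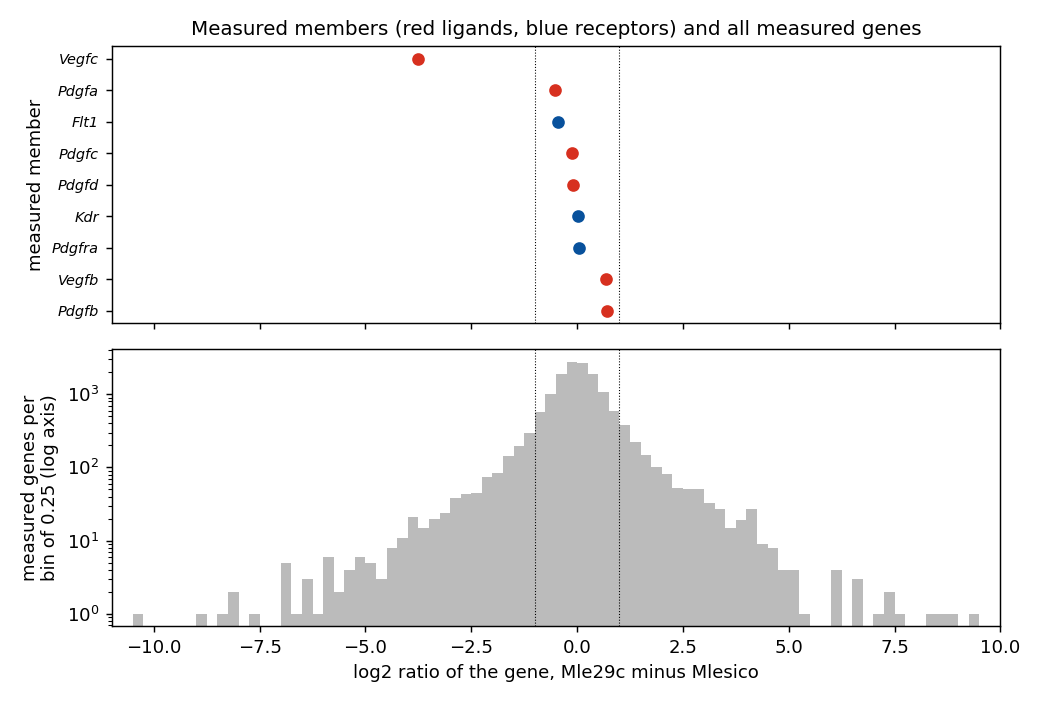
The upper panel plots the log2 ratio (Mle29c minus Mlesico) of the 9 measured members, ligands in red and receptors in blue, and the lower panel the number of measured genes per bin of 0.25 on a log axis, with dotted lines at 2-fold. Vegfc, at -3.75, lies in the lower tail and the other 8 lie between -0.53 and 0.70, inside the dotted lines.

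Of the receptor genes, 3 of 4 were measured. Pdgfra, the alpha receptor that marks fibroblasts and their progenitors, had middle-class probe sets at 0.14 (1421916_at) and 0.05 (1438946_at). The third, 1421917_at, was classed high and stood at -1.30, with centred values of 0.65 in Mlesico and -0.65 in Mle29c. All 3 were designed on expressed sequence tags. The gene value of 0.05 hides this split, since the probe set classed brightest was 2.46-fold lower in Mle29c and the other pair was level. Its high class follows from the rounding step alone, the less certain basis.

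Pdgfrb encodes the beta receptor of pericytes and smooth muscle. Both probe sets were in the low class, with ratios of -1.07 for 1417148_at and -3.85 for 1436970_a_at. The Mle29c log2 signal was below 4 in the former and below 2 in the latter, and the Mlesico signal below 5.07 and 5.85. Both are lower in Mle29c, but in the low class 57.7% of all annotated probe sets differed by 2-fold or more, which leaves nothing to read from their size.

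Flt1, which encodes a VEGF receptor that also exists as a soluble decoy, was lower in Mle29c in each of its 4 probe sets, by very different amounts. The centred values were 0.09 in Mlesico and -0.09 in Mle29c for 1454037_a_at, 0.23 and -0.23 for 1440926_at, 1.10 and -1.10 for 1451756_at, and 2.93 and -2.93 for 1419300_at. The ratios were -0.19, -0.46, -2.21 and -5.85. The first 3 were in the middle class and gave a gene value of -0.46, while 1419300_at was in the low class. Its signal was below 16 in Mle29c and is bounded only below 925 in Mlesico. In 1451756_at the signal was at least 34.4 in Mlesico, and the rounding gives below 256 in Mle29c. The gene value is sensitive to which probe sets enter. It was -1.33 with every probe set kept, with only those classed from the sum, or without probe sets shared between transcripts. Each time this is the midpoint of the same pair, 1440926_at at -0.46 and 1451756_at at -2.21, so these settings are not separate support. The midpoint is past 2-fold, while 1440926_at alone is not. Whether the probe sets report different Flt1 transcripts was not tested.

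Kdr, the main VEGF receptor of blood vessels, had a single probe set, in the middle class, at centred values of -0.01 in Mlesico and 0.01 in Mle29c. Its ratio of 0.01 is the smallest difference among the members. Rounding puts its log2 signal between 3.99 and 8 in Mlesico and between 4.01 and 8.01 in Mle29c. With no detection call, expression of Kdr in these epithelial lines is not shown.

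Counted by probe set, 5 of the members' 17 high- or middle-class probe sets differed by 2-fold or more, beside 15.2% of all annotated probe sets of these classes, and 4 of the 17 were lower in Mle29c, beside 7.32%. Of the 5, 2 belong to Vegfc and 1 each to Flt1, Pdgfra and Pdgfb. In the low class the count was 5 of 6, beside the 57.7% given above. Probe sets of 1 gene share their transcript and are not independent. Pdgfd and Pdgfra had probe sets with ratios of both signs.

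The nearest measured genes on the chromosome were read beside the members. Their starts lay between 4.7 and 823 kilobases from that of the member, so some are far off. On chromosome 5, which holds 4 of the 10, Pdgfra, the related stem cell factor receptor gene Kit and Kdr lie in a row, and their gene values of 0.05, -0.32 and 0.01 were all small. The measured genes on either side of Flt1, Pan3 and Pomp, stood at -0.58 and -0.28. Around Vegfc, the DNA repair gene Neil3 stood at 3.18 and Spcs3 at -0.19, each from 1 probe set. Their starts lie 491 and 443 kilobases from that of Vegfc, and a difference of the region around Vegfc was not tested. Chromosome 8 had a median of 0.07 over 790 measured genes. Both neighbours of Pdgfc were lower in Mle29c, Gria2 at -2.36 and A830029E22Rik at -1.15, while Pdgfc was nearly level. Casp12 and Dync2h1 beside Pdgfd stood at -2.18 and -0.83, Cbx7 and Syngr1 beside Pdgfb at 1.28 and -0.12, and Slc6a7 and Csf1r beside Pdgfrb at 2.20 and -0.08. The neighbours of Pdgfa (Fam20c at 0.25 and Prkar1b at 0.48) and of Vegfb (Fkbp2 at -0.28 and Dnajc4 at 0.20) were within 2-fold, as were Chic2 at -0.13 beside Pdgfra and Srd5a3 at 0.43 beside Kdr.

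The promoter of Vegfc is shown because it belongs to the member with the largest difference, and that of Vegfb because it belongs to the other VEGF ligand gene among the members. Each is the run of 250 bases before the RefSeq transcription start (GRCm38.p6), written 5′ to 3′ on the gene's strand, with GC boxes (GGGCGG on either strand) in capitals. The Vegfc window is chr8:54077282-54077531 (+ strand) and the Vegfb window chr19:6987652-6987901 (- strand).
Vegfc: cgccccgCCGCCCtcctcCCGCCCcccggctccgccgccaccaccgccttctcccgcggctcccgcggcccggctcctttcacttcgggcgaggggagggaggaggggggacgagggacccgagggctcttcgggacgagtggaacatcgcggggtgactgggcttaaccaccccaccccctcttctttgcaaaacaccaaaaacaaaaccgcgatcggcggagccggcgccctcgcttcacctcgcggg
Vegfb: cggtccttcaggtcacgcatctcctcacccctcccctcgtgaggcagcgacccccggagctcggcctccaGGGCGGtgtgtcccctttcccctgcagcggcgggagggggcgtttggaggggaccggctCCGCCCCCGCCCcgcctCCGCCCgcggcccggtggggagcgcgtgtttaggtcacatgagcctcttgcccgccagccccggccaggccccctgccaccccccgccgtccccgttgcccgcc
Vegfc holds 2 GC boxes and 30 CpG dinucleotides, and Vegfb 4 GC boxes and 26 CpGs. Their GC content was 71.6% and 76.4%, against a median of 52.4% over all 32851 windows of this length. RefSeq windows of 8 members were used, Pdgfa with 2, which makes 9. Pdgfb and Pdgfrb are not among them, so the motif counts below say nothing about either. A GC box was in 6 of the 9 and in 32.7% of all windows. ACGTG, a form of the core of hypoxia response elements, was in none of the 9 and in 16.6% of all. Other forms of that core were not searched. CCAAT was in none of the 9 and in 33.8% of all, and TATAAA in those of Flt1 and Pdgfd and in 12.4% of all. Each motif was searched on both strands. GGGCGG and TATAAA share no letters, so their matches cannot overlap. The windows of Pdgfc, Pdgfra and Pdgfd held no GC box and had a GC content between 50.8% and 54.4%. These matches describe the letters and not the use of a site.

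The other genes of the pathways were read from 4 lists of genes besides the members, of which 82 genes were measured. Past 2-fold, 3 of them were higher in Mle29c and 7 were lower, together 12.2%, beside 15.6% of all measured genes. Their median was -0.05.

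The differences were largest among the other ligands, receptors and coreceptors, where 3 of 15 measured genes were higher and 1 lower. Pgf, which encodes placental growth factor, a ligand of FLT1, was far lower in Mle29c (log2 ratio -4.00, 1 middle-class probe set, Mle29c signal below 256). Flt4, a receptor gene for VEGF-C, was 4.48-fold higher from its probe set 1444052_at, classed high from the rounding step. Its low-class probe set 1421442_at stood at 2.90. Flt3, a cytokine receptor gene of blood progenitors, was at 1.61 from 1 middle-class probe set. Nrp2, which encodes neuropilin 2 and is named here after its values were seen, was at 1.25, with its 4 high-class probe sets between 0.71 and 1.55. Its partner gene Nrp1 was at -0.22, with 4 high-class probe sets between -0.63 and -0.14. Between the arrays, Vegfc thus differed in the opposite direction from Flt4 and Nrp2, while Kdr was level at 0.01. Vegfd, the gene for the other lymphatic ligand, was at -0.96 with 3 middle-class probe sets between -1.04 and -0.70. The receptor relatives Kit and Csf1r were at -0.32 and -0.08.

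Among genes that activate the ligands or hold them in the matrix, 3 of 17 were lower and none higher. Pcsk5, a convertase gene, was at -2.33, but its 5 probe sets ran from -7.88 to 0.58. Adamts1, whose product is a protease that can bind VEGF, was at -2.11 from 1 probe set. Adaptors and signal transducers were nearly level, with 26 of 27 within 2-fold and Sh2d2a, an adaptor of KDR, at -1.64. Of 23 genes that remove or dephosphorylate receptors, 21 were within 2-fold. Ptprb, a phosphatase gene of endothelial cells that restrains KDR and TEK signalling, was at -1.46. Its 3 probe sets ran from -1.84 to -1.20. The adaptor gene Grb10 was at -1.35.

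**Figure D3:**
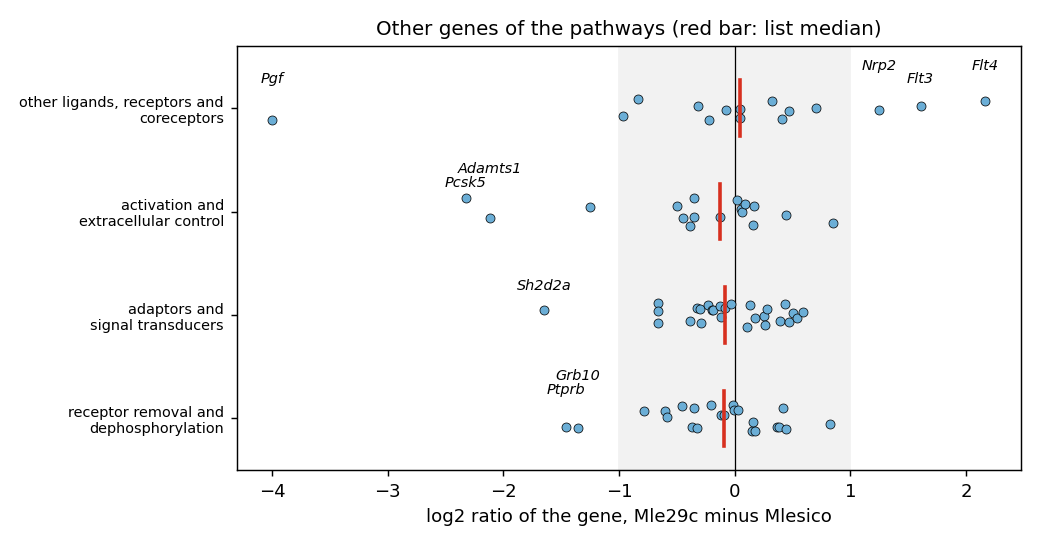
Each point is the log2 ratio (Mle29c minus Mlesico) of 1 measured gene of the 4 pathway lists, with a red bar at the list median and a grey band for differences under 2-fold; vertical scatter has no meaning. Pgf at -4.00 and Flt4 at 2.16 lie outermost in the top row, and the adaptors lie within 2-fold apart from Sh2d2a at -1.64.

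Markers of the cell types that usually carry these receptors were read beside them. Of 18 endothelial markers 11 were measured, 1 at least 2-fold higher (Vwf at 1.40) and 3 lower (Egfl7 at -1.62, Tek at -1.57 and Nos3, named after its values were seen, at -1.35), with a median of -0.07. The 7 without a high- or middle-class probe set include Pecam1, Tie1 and Emcn, while 4 (Cdh5, Tek, Egfl7 and Eng) had a high-class one. For Cdh5, Egfl7 and Eng that class rests on the rounding step alone, which gives no bound on the signal. The 4 Egfl7 probe sets ran from -3.51 to -0.02. Past 2-fold among 12 measured fibroblast markers were 3 higher ones and 1 lower one, and their median was 0.14. Among 10 measured markers of pericytes and smooth muscle 1 was higher and 3 lower (median 0.04). Past 2-fold either way were 36.4% of the measured endothelial markers, 33.3% of the fibroblast ones and 40% of the pericyte and smooth muscle ones. Of all measured genes 15.6% were. Each list share rests on few genes. Of the epithelial markers 16 of 19 were measured, and 6 had a high-class probe set. So did 7 of the 12 measured fibroblast markers and 4 of the 10 of pericytes and smooth muscle. Past 2-fold, 1 epithelial marker was higher (Cdh1 at 1.46) and 2 were lower (Esrp1 at -4.51 and Krt7 at -1.20), together 18.8%. The median ratio of the epithelial markers was 0.05. Of 11 alveolar type 2 markers 6 were higher, beside 8.41% of all measured genes, and none lower, with a median of 1.02. That median was 0.35, with 2 genes higher, among probe sets classed from the sum, and 2.005 among high-class ones. Summed levels of these lists cannot be given, because the level was removed. Their part in the members' values was not tested, and fewer cells of a type and less RNA per cell cannot be told apart in such samples.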

How the data were processed

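Transcripts of 2 cell lines were measured with 1 array each. The deposited values are log2 signals (base inferred), made by the authors with MAS5, per the submitters' processing notes, which give no version. They are centred per probe set, so that both values sum to 0 within 1.00e-06. The log2 ratio is the Mle29c minus the Mlesico column, taken by label. Precision is limited by the number of arrays.

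Of 45101 probe sets, 34945 list 1 gene in the platform annotation of 2016, 932 several and 9160 none, and 64 are controls; 34741 symbols were updated by gene number (GRCm38.p6). Level classes rest on the size of that sum or, where it is 0, on the binary step (tolerance 0.02 of a step), which gave 19479 high, 14380 middle, 11081 low and 161 tied probe sets. Upper bounds on the weaker array came from the step and lower bounds on the mean from the sum. Where a probe set had both, they contradicted each other in 33 of 13731. Genes were counted at 2-fold. No test was possible. Python 3.11.15, pandas 2.3.3 and NumPy 2.4.6 were used.

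The members and lists were chosen with earlier results of these data known. The text names every member, Kit, Csf1r, Flt3 and Flt4, neighbouring genes, and up to 2 genes per side of a list past 2-fold; other genes were named as well-known members of a list or after their values were seen.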

Additional observations from a re-analysis of the deposited data

How the results depend on the processing

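With 1 array per line, no replicate could be left out. No paired analysis was possible because each line has 1 array. Vegfc stayed lower under each alternative that gave it a value (it had none among high-class probe sets or among those classed from the sum), and its value was -5.42 with the values read as natural logs, an alternative chosen after the data were seen. Flt1 stood at -1.33 with every probe set kept, among probe sets classed from the sum, and without shared ones. Each time this was the midpoint of the same pair of probe sets. Pdgfra stood at -1.30 in the high class, from a single probe set. Members at least 2-fold lower numbered 3 with every probe set kept and 2 without shared probe sets. The lower member was Flt1 among probe sets classed from the sum and Pdgfra among high-class ones, where Vegfc had no value. Members at least 2-fold higher numbered 1 with natural logs and 2 at 1.5-fold. Over all genes, higher and lower counts were 2252 and 1980 with every probe set, 678 and 553 for high-class probe sets, 625 and 548 for those classed from the sum, 2032 and 1807 with natural logs, 2462 and 2245 at 1.5-fold, and 395 and 342 at 4-fold. Higher and lower pathway genes numbered 7 and 14 at 1.5-fold and 1 and 3 at 4-fold; 6 were higher with natural logs and 2 lower with the class from the sum. Other thresholds, fewer probe sets or a larger scale enter by construction. For Flt1 and Pdgfra the probe sets that enter account for the change.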
